A study of Mus musculus with 20 samples.

Results

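The genes described here were listed as the inhibitory side of macrophage receptor signalling, with 8 receptors and 2 phosphatases. The phosphatases act below receptors with an inhibitory motif (ITIM), which the pattern searched here did not find in Siglec1 and Cd200r1. They were chosen by symbol (Sirpa, Pirb, Lilrb4a, Cd300a, Cd300lf, Siglece, Siglec1, Cd200r1, Ptpn6 and Ptpn11), with no measured value in the rule, and are 10 of 51456 gene symbols in the deposited tables. Earlier results of these data were known when these genes and the related lists were chosen. All 10 passed the filter on low levels (mean over all 20 libraries not below 1 FPKQ), as did 10843 symbols in total.

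The levels come from poly-A RNA-seq of macrophages grown from the bone marrow of C57BL/6 mice aged 4 to 5 months, kept in 50 ng/ml CSF-1 until day 6. CSF-1 is the cytokine that turns marrow cells into macrophages. The 3 genotypes were wild type (WT, 10 libraries), a knockout of Trem2 labelled as a 5 bp allele (KO, 5 libraries) and a knock-in of the R47H substitution in Trem2 (R47H, 5 libraries). Both alleles are carried by the whole animal, so the marrow, the culture and the macrophages all had them, and the genotype label of the knock-in does not state zygosity. Trem2 is a lipid-binding macrophage receptor that signals through the ITAM adaptor Tyrobp and the kinase Syk, and the human R47H variant is a risk factor for Alzheimer's disease. Per the design text each genotype had 5 animals, and the controls were littermates. For WT that number does not match the 10 libraries, whose deposited tables carry running numbers that all differ. No sample label matches a wild-type library to the mutant whose littermate it is, so all 10 served as the control of both. Running numbers in the names of the deposited tables place WT Rep1 to Rep5 among the KO animals and WT Rep6 to Rep10 just before the R47H animals, but no label says what these numbers are, and they assigned no control here. Each set was also used separately, and calls that change with the set are given.

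An ITIM is a short stretch around a tyrosine in the cytoplasmic tail of an inhibitory receptor. When a ligand is bound, Src family kinases such as Lyn phosphorylate that tyrosine, and the phosphatases SHP-1 (Ptpn6) and SHP-2 (Ptpn11) dock there and remove phosphate from proteins activated through ITAM receptors. In macrophages the ligands of these receptors differ: Sirpa binds Cd47, Pirb binds MHC class I, the Cd300 receptors bind lipids of dying cells, and Siglecs bind sialic acid.

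The tails of the 8 receptors differed in how many ITIMs their coding sequences spell. The pattern searched was isoleucine, valine, leucine or serine, any residue, tyrosine, 2 residues of any kind, then isoleucine, leucine or valine, in the longest coding sequence of each gene in GENCODE M21 (GRCm38) after its predicted membrane segment. Sirpa and Pirb held 3 matches each, Lilrb4a, Cd300a and Cd300lf 2 each, and Siglece 1. Siglec1 and Cd200r1 held 0 by this pattern, so they are called ITIM receptors here by the list's name and not by this sequence. Cd200r1 held 1 match to the other tyrosine motif searched, asparagine, proline, any residue, tyrosine, the kind through which it is known to recruit Dok adaptors. The coding stretches that spell the matches are shown for the receptor with the highest level (Sirpa) and for 4 receptors whose levels changed in KO. Each is 18 bases of one coding exon, read 5′ to 3′ on the coding strand, with the tyrosine codon in capitals.

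Sirpa ITIM 1, chr2:129629954-129629971, plus strand: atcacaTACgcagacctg
Sirpa ITIM 2, chr2:129630077-129630094, plus strand: ctcaccTATgctgacctg
Sirpa ITIM 3, chr2:129630149-129630166, plus strand: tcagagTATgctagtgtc
Lilrb4a ITIM 1, chr10:51496021-51496038, plus strand: attgtcTACgcccaggta
Lilrb4a ITIM 2, chr10:51496194-51496211, plus strand: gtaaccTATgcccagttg
Cd300a ITIM 1, chr11:114899846-114899863, plus strand: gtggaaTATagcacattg
Cd300a ITIM 2, chr11:114901147-114901164, plus strand: cttcacTATtcatccgtg
Cd300lf ITIM 1, chr11:115117648-115117665, minus strand: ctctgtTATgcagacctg
Cd300lf ITIM 2, chr11:115117112-115117129, minus strand: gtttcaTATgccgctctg
Siglece ITIM 1, chr7:43651585-43651602, minus strand: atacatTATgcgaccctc

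Both tyrosine codons, TAT and TAC, occur among them, and all 10 stretches lie within single exons of GRCm38. The coordinates of these stretches and of the genes in this paragraph are those of GENCODE M21. Cd300a (chr11:114890041-114904654) and Cd300lf (chr11:115116214-115133992) belong to a single receptor cluster on chromosome 11. Pirb (chr7:3711409-3720391) and Siglece (chr7:43651070-43660161) lie apart on chromosome 7. The remaining genes are Sirpa (chr2:129592835-129632228), Siglec1 (chr2:131069220-131086765), Lilrb4a (chr10:51490956-51496611), Cd200r1 (chr16:44765736-44794978), Ptpn6 (chr6:124720707-124738714) and Ptpn11 (chr5:121130533-121191397).

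RefSeq (GRCm38.p6) gave a promoter, 250 bases before to 50 bases after the start, for 6 of the 10 genes. Those of the 4 genes among them that passed the test in KO are shown: Cd300a, Cd300lf and Siglece, which rose, and Ptpn6, which fell. The capitals mark GAGGAA or its reverse complement TTCCTC, letters within a form of the site of Spi1 (PU.1), a lineage factor of macrophages. Both strands were searched, with overlaps allowed. The shorter GGAA or TTCC was not searched, and it also occurs outside the capitals in each of these promoters.

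Cd300a promoter, chr11:114889791-114890090, plus strand: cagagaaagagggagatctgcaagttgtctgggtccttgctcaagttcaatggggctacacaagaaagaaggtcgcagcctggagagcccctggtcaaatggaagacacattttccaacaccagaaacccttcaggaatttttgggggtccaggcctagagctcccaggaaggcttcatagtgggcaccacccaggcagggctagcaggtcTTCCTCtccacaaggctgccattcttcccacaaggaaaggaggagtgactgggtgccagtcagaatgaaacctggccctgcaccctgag
Cd300lf promoter, chr11:115133943-115134242, minus strand: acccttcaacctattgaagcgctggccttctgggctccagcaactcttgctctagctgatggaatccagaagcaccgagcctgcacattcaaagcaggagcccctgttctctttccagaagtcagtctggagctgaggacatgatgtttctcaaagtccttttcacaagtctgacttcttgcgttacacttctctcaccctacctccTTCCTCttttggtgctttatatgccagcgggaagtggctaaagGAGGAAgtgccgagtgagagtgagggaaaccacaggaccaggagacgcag
Siglece promoter, chr7:43660112-43660411, minus strand: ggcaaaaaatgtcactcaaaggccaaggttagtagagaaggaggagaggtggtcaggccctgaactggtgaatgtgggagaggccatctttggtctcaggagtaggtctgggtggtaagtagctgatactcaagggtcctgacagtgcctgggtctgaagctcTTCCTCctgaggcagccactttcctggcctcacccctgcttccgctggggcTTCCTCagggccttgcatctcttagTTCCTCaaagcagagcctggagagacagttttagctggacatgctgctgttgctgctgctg
Ptpn6 promoter, chr6:124738660-124738959, minus strand: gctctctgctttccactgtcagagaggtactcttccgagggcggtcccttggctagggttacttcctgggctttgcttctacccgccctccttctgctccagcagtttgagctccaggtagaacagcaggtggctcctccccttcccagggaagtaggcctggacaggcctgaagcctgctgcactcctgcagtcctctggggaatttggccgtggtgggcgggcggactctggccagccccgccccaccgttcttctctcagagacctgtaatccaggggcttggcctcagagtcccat

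Cd300a held 1 match to GAGGAA, Cd300lf 2, Siglece 3 and Ptpn6 0, though the Ptpn6 promoter does hold GGAA and TTCC. The 2 promoters not shown, of genes that did not pass in KO, held 3 matches (Pirb) and 1 (Ptpn11), so matches occurred among genes that rose and genes that were not called. GAGGAA was present on either strand in 28.3% of the 32851 promoters of the same length. The longer word GAGGAAGT, which contains GAGGAA, was found once in Cd300lf, once in Pirb and in 3.20% of all promoters. A match is a description of letters, not of a bound site.

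Library-wide values that touch these genes were as follows. Trem2 read 2.99% of the WT mean in KO, 24.1 ± 0.435 against 806 ± 60.6 FPKQ (SD, n = 5 and 10), and 80.9% in R47H, 652 ± 137 FPKQ (SD, n = 5). By an exact two-sided permutation test the KO difference of -5.004 on the log2 scale had p = 0.000333, the smallest that 3003 splits can give, and the R47H difference of -0.33 had p = 0.00833. Against WT Rep6 to Rep10 alone the R47H difference was -0.27 (exact permutation p = 0.135). FPKQ, the deposited unit, was read as fragments per kilobase on a scale set by a quantile, so levels of different genes are comparable per length. A level of 1 FPKQ in a gene of 2 kb stood for 46.97 to 71.8 fragments per library. The 10 macrophage markers searched were present in every library, with summed levels of 23437 to 26846 FPKQ in WT, 32696 to 35455 in KO and 26697 to 29718 in R47H. Most of that sum was Lyz2, lysozyme, at 20996 ± 1092 FPKQ in WT, 29652 ± 964 in KO and 23932 ± 1248 in R47H (SD, n = 10, 5 and 5). Of the 10 macrophage markers 5 rose and 4 fell in KO, and 4 rose and 2 fell in R47H. Over all tested genes 52.0% were called in KO and 21.2% in R47H. Those that fell in KO included Cd14, a coreceptor for lipopolysaccharide, and Itgam (differences of -1.26 and -0.55 on the log2 scale, limma adjusted p = 2.11e-10 and 1.03e-05). Summed levels of 13 neutrophil markers were 73.9 to 111 FPKQ in WT, 105 to 136 in KO and 89.2 to 157 in R47H, and Ly6g among them was listed at 0 in every WT and KO library. Of 6 tested neutrophil markers 2 rose and 0 fell in KO, and 2 rose and 0 fell in R47H, beside the same shares of all tested genes. In KO, Csf3r, the receptor for G-CSF, went from 29.8 ± 4.03 FPKQ in WT to 55.6 ± 1.23, and Mmp8 from 1.35 ± 0.316 to 4.26 ± 0.449 (SD, n = 10 and 5). S100a8 (17.9 and 18.0), S100a9 (33.6 and 33.9), Ngp and Ltf did not pass the test in KO. Markers below the filter were not tested. Elane, Mpo and Prtn3 had means of 0.374, 0.438 and 0.398 FPKQ in WT and 1.00, 1.10 and 1.02 in KO. Camp, Retnlg and Cxcr2 had lower means in KO (0.255, 0.0114 and 0.0999 FPKQ) than in WT (0.463, 0.164 and 0.148). The tested markers that rose in R47H were Csf3r and Ngp (0.53 and 0.54 on the log2 scale, limma adjusted p = 4.55e-05 and 0.00469). The summed markers of dendritic, eosinophil, mast, T and NK, B, stromal and erythroid cells each reached at most 9.26 FPKQ. The part of these shifts in the results was not tested, and in bulk RNA fewer cells of a type and less RNA per cell cannot be told apart.

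In wild-type macrophages the 10 genes spanned nearly the whole range of tested levels. Sirpa was the highest at 999 ± 32.6 FPKQ (SD, n = 10), rank 61 of 10843 tested genes, followed by Lilrb4a at 646 ± 52.0 (rank 127). Pirb (193 ± 8.23) and Ptpn6 (163 ± 11.9) came next, and their ranges of 174 to 203 and 149.7 to 178 FPKQ overlapped. Cd300a (81.9 ± 4.70), Cd200r1 (71.98 ± 5.32) and Siglec1 (60.7 ± 9.05) formed a middle group in which each neighbour's range overlapped the next. Ptpn11 (22.7 ± 1.29) and Cd300lf (13.7 ± 3.09) were lower and did not overlap each other, and Siglece (1.21 ± 0.313) was at rank 10561, close to the filter. Sirpa held 48.3% and Lilrb4a 31.2% of the summed level of the 8 receptors, and SHP-1 message exceeded SHP-2 message by 7.21 ± 0.655 times within a library (SD, n = 10).

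In KO macrophages 5 of the 10 genes rose (Cd300a, Cd300lf, Siglece, Siglec1 and Cd200r1), 2 fell (Lilrb4a and Ptpn6) and 3 did not pass the test (Sirpa, Pirb and Ptpn11). The test was limma on log2(FPKQ + 1) over all tested genes, with Benjamini-Hochberg adjustment and a threshold of 0.05. By the same rule 52.0% of all tested genes were called in KO, 28.2% higher and 23.7% lower (54.3% of the called genes were higher, and 36.1% after rescaling to equal sums), so 7 of 10 has to be read against a background of more than 1 gene in 2. The median difference of the 10 genes was 0.30 on the log2 scale, beside 0.01 over all tested genes. For 5 of the 10 the KO and WT ranges did not overlap (Lilrb4a, Cd300a, Cd300lf, Cd200r1 and Ptpn6), as for 28.7% of all tested genes.

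**Figure D1:**
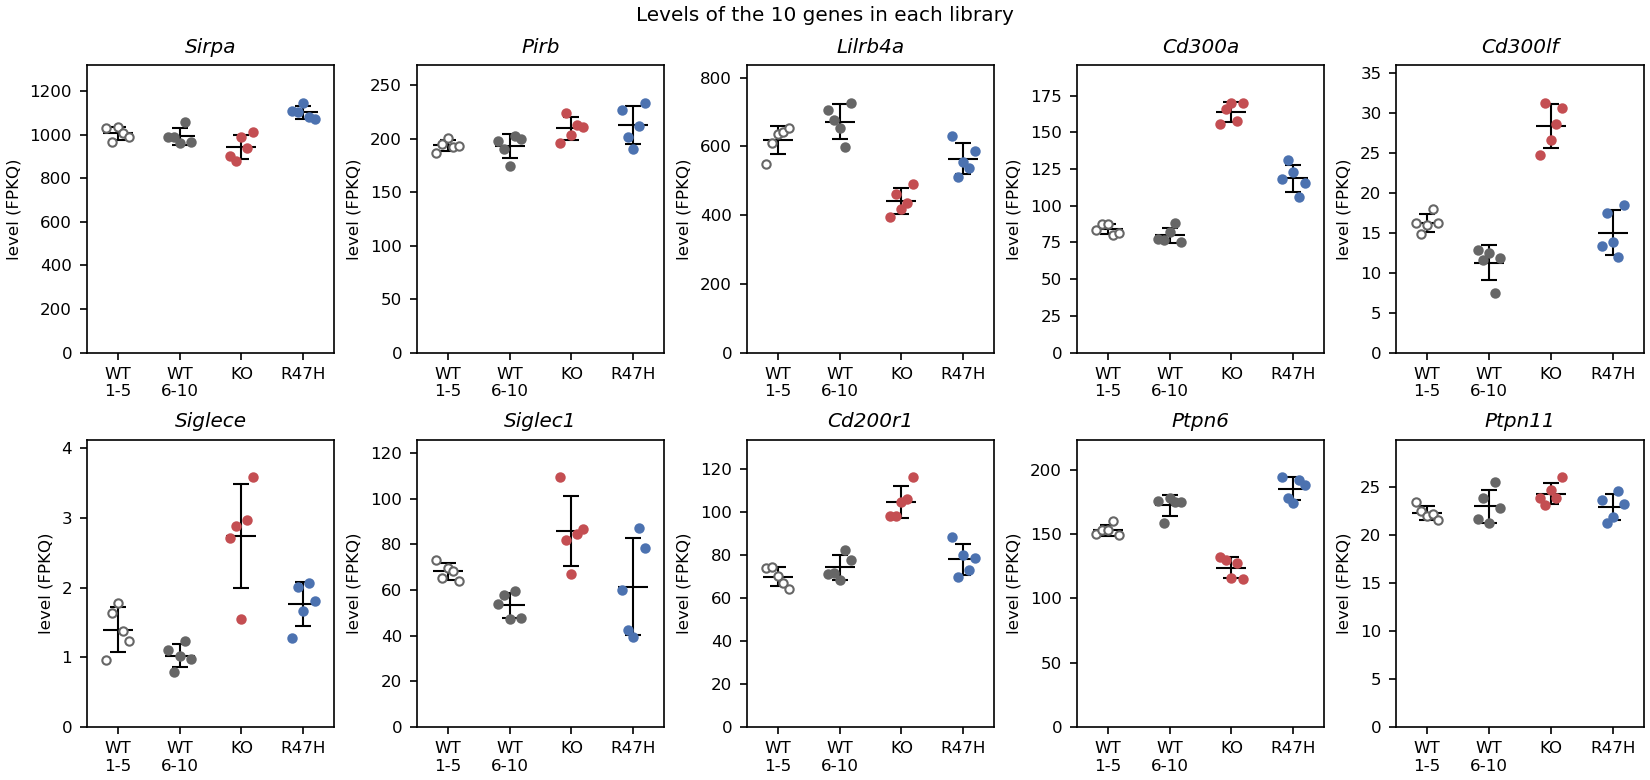
Level in FPKQ (vertical axis, linear, from 0) of each of the 10 genes in every library, by group (horizontal axis), with WT Rep1 to Rep5 as open and WT Rep6 to Rep10 as filled grey points; horizontal lines are group means and error bars are 1 SD. Cd300a is separated into 3 levels without overlap, WT up to 88.0, R47H from 106 to 131 and KO from 156 FPKQ, while Siglec1 in R47H runs from 39.2 to 87.0 FPKQ.

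Cd300a, an inhibitory receptor for phosphatidylserine and phosphatidylethanolamine on dying cells, doubled in KO and took an intermediate level in R47H. Its WT libraries ran from 75.4 to 88.0 FPKQ with a median of 81.8. KO Rep1 to Rep5 read 156, 166, 170.1, 158 and 170.0 FPKQ, and R47H Rep1 to Rep5 read 118, 131, 123, 106 and 115 FPKQ. Every KO library was above every R47H library, and every R47H library above every WT library. The KO mean was 200.2% and the R47H mean 145% of the WT mean. The differences from WT were 0.99 (SE 0.049, limma adjusted p = 4.80e-13) in KO and 0.53 (SE 0.049, limma adjusted p = 1.32e-07) in R47H on the log2 scale, and R47H was lower than KO by a difference of -0.47 (limma adjusted p = 2.23e-06).

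Cd300lf, of the same cluster and likewise an inhibitory receptor for lipids of dying cells, rose in KO. WT libraries lay between 7.47 and 17.9 FPKQ with a median of 13.8, and KO Rep1 to Rep5 read 24.7, 31.3, 26.6, 28.6 and 30.6 FPKQ. R47H Rep1 to Rep5 read 13.3, 17.5, 13.8, 12.0 and 18.4 FPKQ. All KO libraries exceeded all others, and the R47H values lay among the WT values except for the highest. The KO difference was 1.02 (SE 0.14, limma adjusted p = 3.04e-06). The R47H difference was 0.14 with a 95% interval of -0.16 to 0.43 (limma adjusted p = 0.541), and R47H was lower than KO by a difference of -0.89 (limma adjusted p = 2.41e-04). The wild-type sets themselves differed for this gene, at 16.2 ± 1.12 FPKQ in WT Rep1 to Rep5 and 11.2 ± 2.18 in WT Rep6 to Rep10 (SD, n = 5 each), without overlap. Taken against either set the KO rise was called, at 0.77 and 1.28 on the log2 scale.

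Reads can be divided among near-identical copies by RSEM, the tool named in the submitters' processing notes, so levels within the Cd300 cluster, and of Pirb and Lilrb4a beside their copies, are less certain. Among the cluster's members without an ITIM, Cd300lb (161 ± 8.95 FPKQ in WT, 149.2 ± 2.63 in KO), Cd300c2 (272 ± 18.7 and 288 ± 18.1) and Cd300ld3 (283 ± 39.6 and 305 ± 24.3) did not pass the test in KO (SD, n = 10 and 5). Cd300ld4 and Cd300ld5, which were lower, rose by 1.25 and 1.46, and Cd300e fell by 0.68 on the log2 scale (limma adjusted p = 4.05e-04, 0.00251 and 6.68e-06). The cluster therefore held genes in each class of result.

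Cd200r1, the receptor for the inhibitory ligand Cd200, rose in KO to 145% of the WT mean. Its WT libraries ran from 64.1 to 82.4 FPKQ with a median of 71.2, whereas KO Rep1 to Rep5 read 98.1, 97.8, 104, 106 and 116 FPKQ. R47H libraries read 88.4, 69.7, 79.8, 72.8 and 78.3 FPKQ. The KO range was above both others, and R47H overlapped WT. The difference was 0.53 in KO (SE 0.060, limma adjusted p = 1.68e-07) and 0.11 in R47H (95% interval -0.02 to 0.23, limma adjusted p = 0.212), and R47H lay below KO by a difference of -0.42 (limma adjusted p = 7.37e-05). Cd200r4, a relative without inhibitory signalling, rose by 0.15 in KO (60.8 ± 4.13 to 67.7 ± 3.67 FPKQ, SD, n = 10 and 5, limma adjusted p = 0.0279).

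Both Siglecs passed the test in KO and neither did in R47H. Siglece, a sialic acid receptor that recruits SHP-1 and SHP-2, ran from 0.780 to 1.78 FPKQ in WT with a median of 1.16. In KO Rep1 to Rep5 it read 2.71, 2.89, 1.54, 2.98 and 3.59 FPKQ, and in R47H 1.28, 2.01, 1.66, 2.07 and 1.81 FPKQ. KO Rep3 fell within the WT range and the other KO libraries were above it. The KO mean was 227% of the WT mean, and the log2 difference of 0.75 (SE 0.12, limma adjusted p = 2.17e-05) understates this because 1 is added to such low levels. The R47H difference of 0.33 missed the threshold (95% interval 0.08 to 0.58, limma adjusted p = 0.0556).

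Siglec1 (sialoadhesin) binds sialic acid on other cells and has a short tail. WT libraries ran from 47.4 to 73.1 FPKQ with a median of 61.8, and KO Rep1 to Rep5 read 109.6, 81.8, 67.1, 84.4 and 86.5 FPKQ. R47H Rep1 to Rep5 read 60.2, 42.3, 39.2, 87.0 and 78.3 FPKQ. KO Rep3 overlapped WT, and the R47H libraries lay both below and above the whole WT range. The KO difference was 0.49 (SE 0.16, limma adjusted p = 0.0127) and the R47H difference -0.04 (95% interval -0.37 to 0.29, limma adjusted p = 0.896). The wild-type sets stood apart without overlap, at 68.2 ± 3.57 and 53.2 ± 5.62 FPKQ (SD, n = 5 each). Against WT Rep1 to Rep5 alone the KO difference was 0.31 (limma adjusted p = 0.185), against WT Rep6 to Rep10 it was 0.67 (limma adjusted p = 0.00759), and without KO Rep1 it was 0.40 (limma adjusted p = 0.0532). In R47H Rep1 to Rep5, Trem2 itself read 673, 772, 794, 496 and 527 FPKQ. There the 2 libraries with the highest Siglec1 had the lowest Trem2. The wild-type sets went the other way: WT Rep1 to Rep5, higher in Siglec1, also had the higher Trem2 (838 ± 41.6 against 774 ± 63.0 FPKQ, SD, n = 5 each). In KO, Siglec1 ran from 67.1 to 109.6 FPKQ while Trem2 stayed at 23.7 to 24.8. A relation between the 2 genes was not tested.

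Lilrb4a (gp49B), the second most abundant of the receptors, fell in KO to 68.2% of the WT mean. WT libraries ran from 549 to 727 FPKQ with a median of 648, and KO Rep1 to Rep5 read 394, 463, 418, 436 and 491 FPKQ. R47H Rep1 to Rep5 read 631, 512, 554, 538 and 588 FPKQ. All KO libraries were below all others, and R47H overlapped the lower WT libraries. The difference was -0.55 in KO (SE 0.065, limma adjusted p = 3.31e-07) and -0.19 in R47H (SE 0.065, limma adjusted p = 0.0395). The R47H call was lost in 14 of 29 alternatives, among them WT Rep1 to Rep5 as control (-0.13, limma adjusted p = 0.225). R47H was above KO by 0.36 (limma adjusted p = 8.17e-04), but after quantile normalization this was 0.20 (limma adjusted p = 0.112). Its near-identical copy Lilr4b read 327 ± 36.5 FPKQ in WT, 216 ± 20.2 in KO and 312 ± 31.9 in R47H (SD, n = 10, 5 and 5), a difference of -0.59 in KO (limma adjusted p = 2.79e-06) and -0.07 in R47H (limma adjusted p = 0.600).

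Sirpa and Pirb, the receptors with 3 ITIM matches each, did not pass the test in KO and passed it in R47H. Sirpa libraries ran from 962 to 1058 FPKQ in WT with a median of 989.7. KO Rep1 to Rep5 read 903, 881, 988, 939 and 1012 FPKQ, and R47H Rep1 to Rep5 read 1109, 1106, 1147, 1081 and 1073 FPKQ. All R47H libraries were above all WT and KO libraries, while KO and WT overlapped. The R47H difference was 0.14 (SE 0.041, limma adjusted p = 0.0162) and the KO difference -0.08 (95% interval -0.17 to 0.00, limma adjusted p = 0.1002). With WT Rep1 to Rep5 as the only controls the R47H difference was 0.13, and with WT Rep6 to Rep10 0.15 (limma adjusted p = 0.0805 and 0.0601). After quantile normalization or rescaling to equal sums the R47H difference was 0.02 (limma adjusted p = 0.847 and 0.786), and after quantile normalization that between R47H and KO went from 0.23 (limma adjusted p = 8.75e-04) to 0.03 (limma adjusted p = 0.733).

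Pirb libraries ran from 174 to 203 FPKQ in WT with a median of 194, while KO libraries read 195, 224, 204, 213 and 211 FPKQ. R47H Rep1 to Rep5 read 227, 201.3, 191, 211 and 234 FPKQ. Both mutant ranges overlapped WT and each other. The R47H difference was 0.14 (limma adjusted p = 0.0494) and the KO difference 0.12 (95% interval 0.01 to 0.22, limma adjusted p = 0.0506), on either side of the threshold, and the R47H call was lost in 22 of 29 alternatives. The difference between R47H and KO was 0.02 (95% interval -0.10 to 0.14, limma adjusted p = 0.793). Its activating partner Pira2, which lacks an ITIM, rose from 41.0 ± 6.25 to 68.2 ± 7.25 FPKQ in KO (SD, n = 10 and 5), a difference of 0.73 (limma adjusted p = 5.61e-06).

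Of the phosphatases, Ptpn6 (SHP-1) fell in KO to 76.1% of the WT mean. WT libraries ran from 149.7 to 178 FPKQ with a median of 159, KO Rep1 to Rep5 read 132, 129.6, 116, 127 and 115 FPKQ, and R47H Rep1 to Rep5 read 195, 178, 174, 192 and 188 FPKQ. All KO libraries were below all others, and R47H overlapped the upper WT libraries. The difference was -0.39 in KO (SE 0.053, limma adjusted p = 2.55e-06), 0.19 in R47H (SE 0.053, limma adjusted p = 0.0147) and 0.58 between R47H and KO (limma adjusted p = 3.83e-07). With all 10 wild-type libraries as the control Ptpn6 was called in opposite directions in the mutants, as 0.452% of all tested genes were, but the R47H call depended on the control. The wild-type sets differed for it by 0.17 (limma adjusted p = 0.0248), at 153 ± 4.27 and 173 ± 8.07 FPKQ (SD, n = 5 each), and leaving out any of 5 wild-type libraries (WT Rep1, Rep3, Rep5, Rep6 or Rep10) ended that call, with adjusted p up to 0.0605. Against WT Rep6 to Rep10 alone the R47H difference was 0.10 (limma adjusted p = 0.229), and against WT Rep1 to Rep5 it was 0.27 (limma adjusted p = 0.00148). Quantile normalization, equal sums and the median of ratios likewise ended the R47H call (0.07, 0.07 and 0.14, limma adjusted p = 0.432, 0.473 and 0.0653).

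Ptpn11 (SHP-2) passed the test in neither mutant. WT libraries ran from 21.3 to 25.5 FPKQ, KO libraries from 23.2 to 26.1 and R47H libraries from 21.3 to 24.6, all overlapping. The KO difference was 0.10 (95% interval 0.00 to 0.19, limma adjusted p = 0.0772) and the R47H difference 0.01 (95% interval -0.08 to 0.11, limma adjusted p = 0.859).

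**Figure D2:**
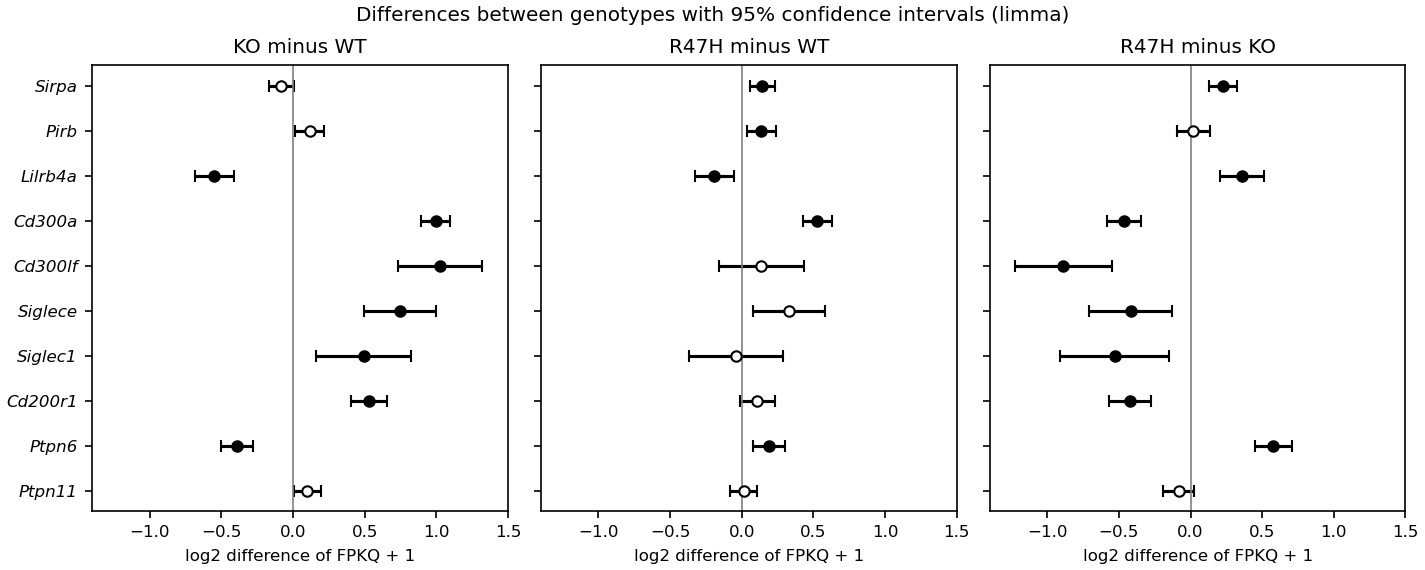
Difference of mean log2(FPKQ + 1) on the horizontal axis for each gene (vertical axis) in KO against WT, R47H against WT and R47H against KO; points are estimates, bars are 95% confidence intervals from limma, and filled points have an adjusted p under 0.05. Cd300a is the gene filled on the right of 0 in both mutants, and Ptpn6 is filled on the left in KO and on the right in R47H.

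In R47H macrophages 4 of the 10 genes passed the test upward (Sirpa, Pirb, Cd300a and Ptpn6), 1 downward (Lilrb4a), and 5 did not pass (Cd300lf, Siglece, Siglec1, Cd200r1 and Ptpn11). Of all tested genes 21.2% were called in R47H, 13.4% higher and 7.83% lower. That balance turned with the scaling: 63.1% of the called genes were higher on the deposited scale, 20.7% after rescaling to equal sums, 46.0% with the median of ratios and 48.6% after quantile normalization. The median difference of the 10 genes was 0.14, beside 0.04 over all tested genes. Groups did not overlap for Sirpa and Cd300a, as for 6.91% of all tested genes. The comparisons of KO and of R47H share their 10 control libraries, so their differences are given side by side and no likeness between them is read.

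Compared directly, R47H was higher than KO for Sirpa, Lilrb4a and Ptpn6 and lower for Cd300a, Cd300lf, Siglece, Siglec1 and Cd200r1, 3 and 5 of the 10 genes. Of all tested genes 40.7% were called there, 22.8% higher and 18.0% lower. Pirb and Ptpn11 did not pass. The ranges did not overlap for 6 of them (Sirpa, Lilrb4a, Cd300a, Cd300lf, Cd200r1 and Ptpn6), as for 23.1% of all tested genes. Siglece was lower by a difference of -0.42 (limma adjusted p = 0.0208) and Siglec1 by -0.53 (limma adjusted p = 0.0252). For Siglece the call ended without KO Rep5 or without R47H Rep1 (limma adjusted p = 0.0677 and 0.0593), and for Siglec1 it ended without KO Rep1, R47H Rep2 or R47H Rep3 (limma adjusted p = 0.0751, 0.0820 and 0.0901).

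With WT Rep1 to Rep5 alone as the control 41.6% of all tested genes were called in KO and 18.1% in R47H, and with WT Rep6 to Rep10 alone 49.0% and 18.0%. Of the 10 genes, 6 were called in KO in the same direction both times (Lilrb4a, Cd300a, Cd300lf, Siglece, Cd200r1 and Ptpn6), where 35.3% of all tested genes were. In R47H it was Cd300a alone, at 0.49 and 0.56 (limma adjusted p = 1.99e-05 and 1.17e-05), where 9.98% of all tested genes were. The sets themselves differed for Cd300lf, Siglec1 and Ptpn6, 3 of the 10 genes, and 13.2% of all tested genes were called between them. Ranges of the sets did not overlap for Cd300lf and Siglec1, as for 11.4% of all tested genes. With the sets taken as the running numbers of the deposited tables place them, 6 of the 10 genes were called in KO against WT Rep1 to Rep5 (all of the 7 but Siglec1). In R47H against WT Rep6 to Rep10 it was 3: Lilrb4a (-0.25, limma adjusted p = 0.0281), Cd300a and Siglece (0.45, limma adjusted p = 0.0277). Sirpa, Pirb and Ptpn6 were then not called in R47H (limma adjusted p = 0.0601, 0.148 and 0.229). The sample labels do not say what sets the sets apart, and whether a litter or culture date was shared was not tested.

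**Figure D3:**
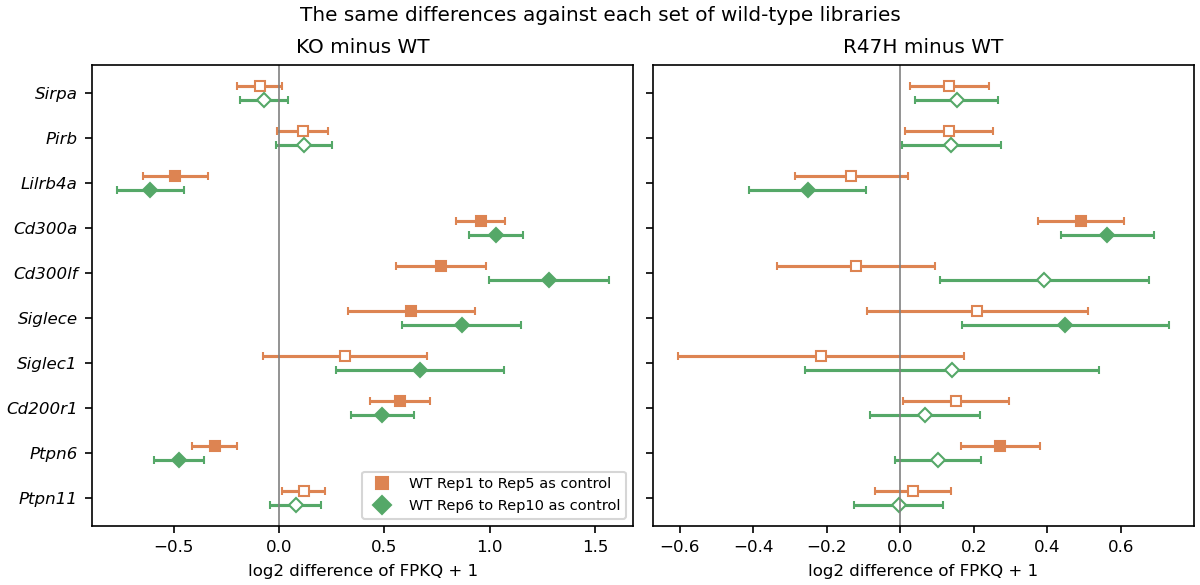
Difference of mean log2(FPKQ + 1) from WT (horizontal axis, a separate scale in each panel) for each gene (vertical axis) in KO and in R47H, with WT Rep1 to Rep5 (squares) or WT Rep6 to Rep10 (diamonds) as the control; bars are 95% confidence intervals and filled symbols have a limma adjusted p under 0.05. In R47H both symbols are filled for Cd300a alone, and Cd300lf lies at -0.12 with one control and 0.39 with the other.

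Ratios of genes within a library do not depend on the scale of that library. Ptpn6 over Ptpn11 was 7.21 ± 0.655 in WT (6.39 to 8.38, n = 10), 5.12 ± 0.536 in KO (4.41 to 5.59, n = 5) and 8.10 ± 0.225 in R47H (7.82 to 8.38, n = 5), with errors as SD. All KO ratios were below all WT ratios, and the R47H ratios lay within the WT range. Lilrb4a over Pirb was 3.35 ± 0.288 in WT, 2.10 ± 0.126 in KO and 2.66 ± 0.174 in R47H, and the ranges of the 3 groups did not overlap (2.94 to 3.75, 2.02 to 2.32 and 2.52 to 2.90). Cd300a over Ptpn6, a receptor with its phosphatase, was 0.505 ± 0.0529 in WT, 1.33 ± 0.137 in KO and 0.642 ± 0.0751 in R47H. KO stood apart for that ratio, and R47H (0.552 to 0.733) overlapped WT (0.431 to 0.572). For Lilrb4a over Sirpa, R47H (0.463 to 0.569) overlapped both WT (0.533 to 0.754) and KO (0.423 to 0.525). The ranges of Cd300a over Cd300lf overlapped among all groups (4.45 to 11.8 in WT, 5.30 to 6.39 in KO and 6.25 to 8.90 in R47H). Separation of Lilrb4a between R47H and the other groups thus depended on the gene it was divided by. These ratios are descriptions and were not tested, and how often other pairs of genes separate was not computed.

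**Figure D4:**
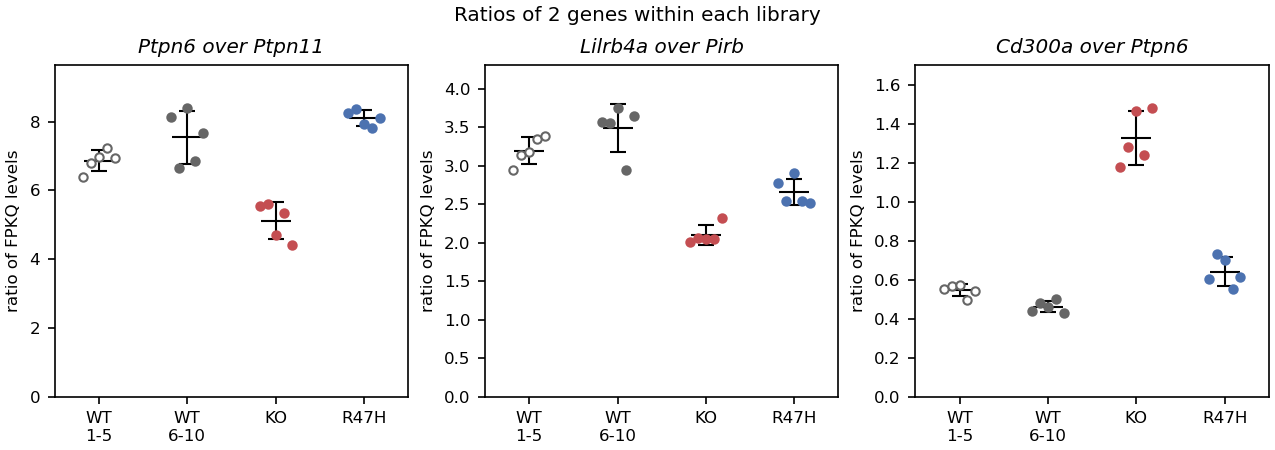
Ratio of FPKQ levels within each library (vertical axis, linear, from 0) for Ptpn6 over Ptpn11, Lilrb4a over Pirb and Cd300a over Ptpn6, by group; horizontal lines are means and error bars are 1 SD. KO lies lowest in the first and second ratio and highest in the third, where its libraries read 1.18 to 1.48.

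The summed level of the 8 receptors was 2067 ± 42.8 FPKQ in WT, 1979.6 ± 87.2 in KO and 2155 ± 65.3 in R47H (SD, n = 10, 5 and 5), with overlapping ranges. Its makeup differed: Lilrb4a held 31.2% in WT, 22.2% in KO and 26.2% in R47H, and Cd300a 3.96%, 8.28% and 5.51%. Sirpa held 48.3%, 47.7% and 51.2%. These shares are weighted by message and not by protein at the surface.

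Other inhibitory receptors with an ITIM, from a list of 20 symbols, had 11 tested members, of which 5 rose and 3 fell in KO and 3 rose and 1 fell in R47H, so 8 and 4 of 11 were called, beside 52.0% and 21.2% of all tested genes. Fcgr2b, the inhibitory Fc receptor, rose from 37.9 ± 4.90 FPKQ in WT to 193 ± 5.19 in KO, a difference of 2.33 (limma adjusted p = 5.12e-15), and read 68.8 ± 7.89 in R47H (0.85, limma adjusted p = 2.07e-07). Cd22, a Siglec best known from B cells, rose by 1.64 in KO (5.38 ± 0.922 to 18.8 ± 1.43 FPKQ, limma adjusted p = 2.28e-12). In KO Cd72, an inhibitory receptor best known from B cells, fell by 1.95 (456 ± 41.4 to 118 ± 19.5 FPKQ, limma adjusted p = 2.13e-13) and the lectin Clec12a fell by 1.11 (311 ± 24.7 to 143 ± 3.67 FPKQ, limma adjusted p = 9.46e-13). For both, R47H did not pass the test (-0.19 and -0.11, limma adjusted p = 0.139 and 0.198). Errors in this and the next paragraphs are SD over 10 WT and 5 mutant libraries.

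Relatives of the receptors without an ITIM had 16 tested members, of which 6 rose and 2 fell in KO and 1 rose and 1 fell in R47H. Those 8 and 2 of 16 were not above the 52.0% and 21.2% of all tested genes. Pilrb2, an activating receptor paired with Pilra, rose by 1.23 in KO (3.17 ± 0.555 to 8.76 ± 0.925 FPKQ, limma adjusted p = 8.54e-08) and by 0.57 in R47H (limma adjusted p = 0.00336). Of 6 tested ligands, 2 rose and 2 fell in KO, and 1 rose and 1 fell in R47H, which is 4 and 2 of 6 beside the same shares. Spn (CD43), a sialylated surface protein, fell by 1.64 in KO (13.7 ± 1.44 to 3.78 ± 0.958 FPKQ, limma adjusted p = 1.64e-10) and by 0.77 in R47H (limma adjusted p = 6.72e-05). Cd200, the ligand of Cd200r1, fell by 0.69 in KO (5.91 ± 1.81 to 3.19 ± 0.469 FPKQ, limma adjusted p = 6.81e-04). Of the MHC class I genes, whose products Pirb binds, H2-D1 rose in KO by 0.49 (limma adjusted p = 1.89e-05) and H2-K1 by 0.24 (limma adjusted p = 0.0229). The light chain B2m did not pass there (0.14, limma adjusted p = 0.0733). In R47H, H2-D1 rose by 0.38 (limma adjusted p = 0.00139) and H2-K1 did not pass (0.17, limma adjusted p = 0.162). H2-D1 was not called between R47H and KO (limma adjusted p = 0.310). Cd47, the ligand of Sirpa, read 120.1 ± 7.48 FPKQ in WT, 126 ± 9.07 in KO and 132 ± 9.17 in R47H and passed in neither.

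Among 17 kinases and adaptors that phosphorylate or dock at ITIM receptors, 8 rose and 7 fell in KO, and 7 rose and 1 fell in R47H, beside 28.2% higher and 23.7% lower in KO and 13.4% and 7.83% in R47H over all tested genes. Lyn, the Src family kinase known to phosphorylate ITIMs, rose by 0.55 in KO (81.0 ± 3.31 to 119 ± 4.96 FPKQ, limma adjusted p = 6.77e-09) and by 0.24 in R47H (limma adjusted p = 0.00159). Fyn, of the same family, fell by 0.98 in KO (29.8 ± 1.44 to 14.7 ± 1.68 FPKQ, limma adjusted p = 3.20e-12) and by 0.41 in R47H (limma adjusted p = 1.38e-05). Gab1, a docking protein of SHP-2, rose by 1.83 in KO (2.27 ± 0.436 to 10.6 ± 0.609 FPKQ, limma adjusted p = 1.34e-13), and Pag1, which holds the kinase Csk at the membrane, by 1.00 (limma adjusted p = 6.12e-12). The adaptors Dok2, Dok3 and Dok1 fell in KO (-1.08, -0.62 and -0.19, limma adjusted p = 1.69e-08, 4.78e-05 and 0.0383). In R47H they did not pass (limma adjusted p = 0.164, 0.0978 and 0.558).

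Of 12 other phosphatases of this pathway 4 rose and 5 fell in KO, and 2 rose and 3 fell in R47H, beside 52.0% and 21.2% of all tested genes called. Inppl1 (SHIP2) fell by 1.07 in KO (102 ± 8.26 to 47.8 ± 2.92 FPKQ, limma adjusted p = 1.82e-12), Ptpra fell by 0.67 (limma adjusted p = 8.82e-10) and Ptpn22 fell by 0.65 (limma adjusted p = 8.36e-08). Ptpn1 (PTP1B) rose by 0.87 (48.9 ± 7.17 to 89.1 ± 3.44 FPKQ, limma adjusted p = 2.43e-08). On the opposing ITAM side, 17 tested genes had 5 up and 3 down in KO, Trem2 itself among the latter, and 9 up and 1 down in R47H, beside the same 52.0% and 21.2%. Syk, the kinase recruited by ITAMs, rose by 0.65 in KO (95.03 ± 4.25 to 149.9 ± 5.39 FPKQ, limma adjusted p = 1.97e-11) and by 0.37 in R47H (limma adjusted p = 1.02e-06). Lcp2 (SLP-76) rose by 0.85 in KO (limma adjusted p = 4.52e-10) and the activating Fc receptor Fcgr3 by 0.62 (limma adjusted p = 1.82e-09).

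**Figure D5:**
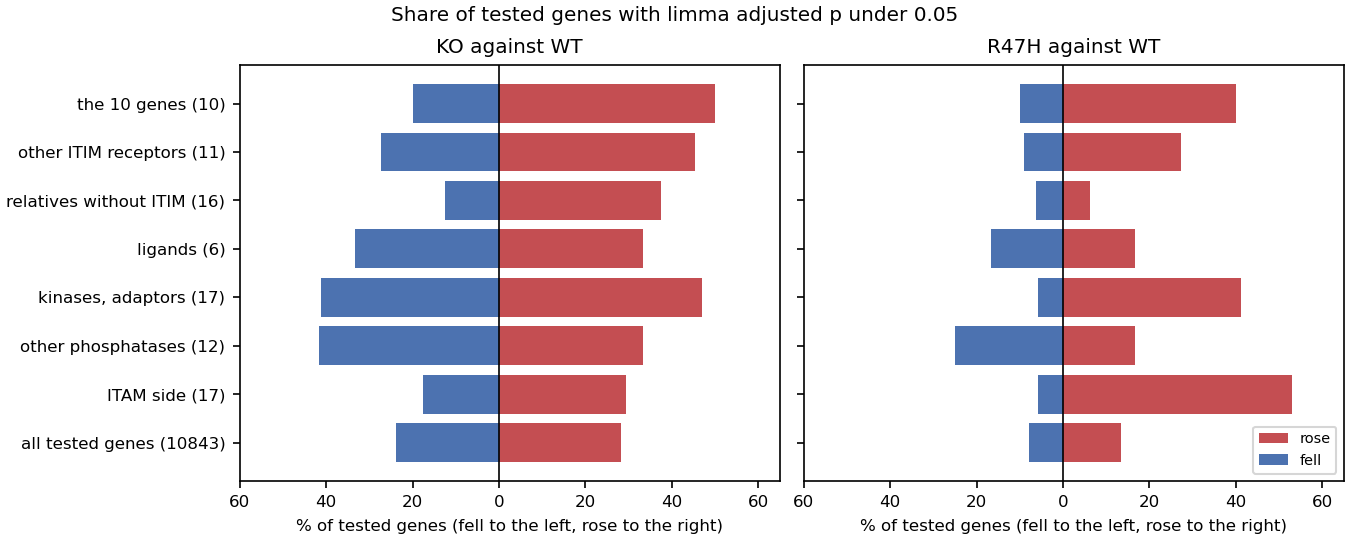
Share of tested genes with a limma adjusted p under 0.05 (horizontal axis, percent, fell to the left and rose to the right of 0) for the 10 genes, 6 related lists and all tested genes (vertical axis, number tested in brackets), in KO and in R47H against WT. In KO the bars extend to both sides for each list, and for the 10 genes they reach 5 of 10 up and 2 of 10 down.

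For each of the genes called in KO by at least 0.5 on the log2 scale, the tested genes with the most similar profile were found by the root mean square difference of log2 levels centred on the WT mean, over 20 libraries. Cd300a lay nearest to Psap, the precursor of lysosomal saposins (0.0885), and Pkdcc (0.0999). Psap rose from 6745 ± 252 FPKQ in WT to 12731 ± 732 in KO and 9992 ± 1379 in R47H (SD, n = 10, 5 and 5). Lilrb4a lay nearest to Gnas (0.0976) and the glycolytic gene Pkm (0.0984), Cd200r1 to Ctnnb1 (beta-catenin, 0.0983) and Gng12 (0.103). Cd300lf lay nearest to Rapsn (0.183) and Sgsh (0.199), and Siglece to Acad10 (0.179) and Ttc7 (0.182), which are larger distances. These are descriptions of likeness over the same libraries that were compared and were not tested.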

How the data were processed

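RNA of 20 cultures was sequenced as strand-specific, paired reads of 75 bases, per the labels' protocols. The authors deposited 1 table per library with a column named FPKQ, taken here for an FPKM with a quantile-based scale, a reading that no label or header states. The submitters' processing notes name RSEM and GRCm38, with no version of RSEM. Depth was read from low values: 84.4% to 87.8% were whole multiples of 1 fragment within 0.1 fragment, and 1 FPKQ in 2 kb stood for 61.7 ± 5.17 fragments in WT, 52.3 ± 3.87 in KO and 53.2 ± 3.71 in R47H (SD, n = 10, 5 and 5). No count test was run on them, since effective lengths are unknown.

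Levels were tested as log2(FPKQ + 1), which understates changes of low genes, with limma 3.58.1 (lmFit and eBayes with a trend) in R 4.3.3. All 3 groups entered one model over the 10843 genes whose mean reached 1 FPKQ, with Benjamini-Hochberg adjustment over all of them, a threshold of 0.05 and two-sided p. "Rose", "fell" and "called" refer to that test. The p-values measure the spread between these cultures. The script was tested on simulated data. Trem2 was also compared by an exact permutation test. Python 3.11.15, numpy 2.4.6, pandas 2.3.3, scipy 1.17.1 and matplotlib 3.10.9 made the summaries and figures.

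Alternatives changed the control libraries, pseudocount, filter, scaling, moderation, library weights, the groups fitted, depth as a covariate, a replicate block and each library left out. Leaving out libraries in the comparison of the wild-type sets was added after seeing the data. The genes and lists were chosen with earlier results of these data known. Named beside the 10 genes were, by rule, up to 4 genes of each of the 6 pathway lists (not of the cell type markers), by adjusted p in KO, and the 2 nearest profiles of each gene called by at least 0.5. Cd47, B2m, Cd200r4, Inpp5d, Dok1, Dok2, Dok3, the single cell type markers and the Cd300 relatives other than Cd300e lie outside that rule. They were named after their values were seen. Coding sequences and the coordinates of genes and ITIM stretches came from GENCODE M21, which held 89.2% of the symbols. Promoters and their coordinates came from RefSeq. Membrane segments were taken as the most hydrophobic window of 19 residues after the first 40.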

Additional observations from a re-analysis of the deposited data

How the results depend on the processing

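In KO the calls of Lilrb4a, Cd300a, Cd300lf, Cd200r1 and Ptpn6 kept their direction and their side of the threshold in all 29 alternatives run, and that of Siglece in 28 (it was not tested at a minimum mean of 5 FPKQ). Siglec1 missed the threshold in 5 of 29: against WT Rep1 to Rep5, at equal sums (adjusted p = 0.0595), with depth as a covariate (0.0503), with the replicate block and without KO Rep1. In R47H Cd300a was called in all 29, from 0.41 to 0.57 on the log2 scale. The number of the 10 genes called in R47H, 5, became 2 against WT Rep1 to Rep5, at equal sums, with the median of ratios and with depth as a covariate, and 3 against WT Rep6 to Rep10, without a filter and after quantile normalization. Leaving out 1 library gave 3 to 6. Sirpa in R47H missed the threshold in 7 of 29 alternatives. Genes that had not passed did so in some: Sirpa and Pirb in KO in 5 of 29 each, Ptpn11 in KO in 1 of 29 and Siglece in R47H in 7 of 28. Siglec1 between R47H and KO also lost its call without a filter, with library weights and with only the groups compared (adjusted p = 0.0622, 0.116 and 0.0750).

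Depth as a covariate reduced all genes called in R47H from 2301 to 1130, and leaving out 1 library moved those called between the wild-type sets from 1429 to between 819 and 1483. Trem2 in R47H was at -0.27 (exact permutation p = 0.135) against WT Rep6 to Rep10. At equal sums the median of all genes shifted by -0.07 in KO and -0.11 in R47H. The causes were not tested.

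The differences that changed sign were all of genes that had not passed the test. In R47H against WT, Cd300lf was at -0.12 against WT Rep1 to Rep5 and -0.0036 with depth as a covariate, and Cd200r1 at -0.012 at equal sums. Siglec1 was at 0.14 against WT Rep6 to Rep10, 0.15 with library weights and 0.030 with depth as a covariate, and without 1 library it ran from -0.18 to 0.10 (above 0 without R47H Rep2 or Rep3). Ptpn11 was at -0.0046 against WT Rep6 to Rep10, -0.027 after quantile normalization, -0.10 at equal sums, -0.028 with the median of ratios and -0.0099 to 0.040 without 1 library. Pirb in R47H against KO was at -0.080 after quantile normalization, -0.018 at equal sums, -0.0070 with the median of ratios and -0.014 to 0.059 without 1 library. Between the wild-type sets Pirb ran from -0.025 to 0.029 without 1 library.

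By the rule that every pair must exceed 0.1, replicate numbers did not pair the samples: over 15 pairs of the same number the correlation of deviations ran from -0.25 to 0.34, 5 were over 0.1, and 3 pairs, the ones of number 2 in every pair of groups (0.34, 0.22 and 0.31), correlated best with their own number. With the replicate block, which leaves WT Rep6 to Rep10 without a partner, 4398 genes were called in KO, 1802 in R47H and 4178 between R47H and KO, with 6, 2 and 8 of the 10 genes, and Cd300lf in R47H was at -0.12. With depth as a covariate Sirpa, Pirb and Lilrb4a in R47H were no longer called, and Siglece, the lowest of the 10 genes, kept its call in KO.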
